A study of Mus musculus with 5 samples.

Results

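The mitochondrial ribosomal protein genes, taken as every gene whose symbol starts with Mrpl or Mrps followed by a number, comprised 76 of the 23234 genes measured. Of these, 47 carried a large subunit name (Mrpl) and 29 a small subunit name (Mrps). All 76 passed the expression filter and were among the 10242 genes tested.

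The mitochondrial ribosome translates the few messenger RNAs that mitochondrial DNA encodes, which specify core subunits of the respiratory chain and of ATP synthase. Its RNAs come from mitochondrial DNA, whereas all of its proteins are encoded in the nucleus, made in the cytosol and imported. The small subunit binds the messenger RNA and holds the decoding centre, and the large subunit forms the peptide bond and threads the new protein through its exit tunnel to the inner membrane. Many of the proteins descend from bacterial ribosomal proteins, and others are found only in mitochondria. Germinal centre B cells divide rapidly, and their light zone is where they are selected by antigen and T cell help.

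Expression was measured by RNA-seq in splenic germinal centre light zone B cells, with 3 Csk(+/+) and 2 Csk(f/f) libraries by their labels. Csk is the kinase that restrains Src family kinases, and the study asked how B cell receptor signalling bears on germinal centre selection. The donor cells of both groups carried ERT2cre(KI/+), B1-8hi(KI/+) and CD45.1/2 on a C57BL/6 background, with Csk either wild type or floxed (Csk(fl/fl)). As naive B cells they were given to C57BL/6J recipients, which kept their own B cells. Recipients of both groups received NP-CGG in alum intraperitoneally on day 0 and tamoxifen on days 8 and 9, so the Csk(+/+) cells were exposed to active Cre as well, and NP-binding donor light zone cells were sorted on day 11. Animal age and the number of animals behind each library are not given in the sources used here. Levels are in FPKM, which are mapped fragments scaled to transcript length and to library size, so levels of different genes can be compared per length.

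The level of Csk was 378, 436 and 415 FPKM in Csk(+/+), against 453 and 476 FPKM under the label Csk(f/f), a log2 difference of 0.18 ± 0.14 (SE; adjusted p = 0.439, limma). The gene-level value thus did not fall with the label, and it does not check the floxed exons. Every direction below refers to the libraries labelled Csk(f/f). Depth, estimated from the spacing of low FPKM values, was about 9390000 to 23200000 fragments per library. Csk(f/f) replicate 2 was the shallowest and Csk(f/f) replicate 1 the deepest, with the Csk(+/+) libraries between them at 11600000 to 19100000. With the longest annotated transcript taken as the length of each gene, the thinnest of the 76, Mrpl41, corresponded to about 106 to 298 fragments. Shorter transcripts would give lower numbers and could place another gene last. All 11 germinal centre light zone markers were well expressed (51.9 to 1830 FPKM), including Cd79a, Bcl6 and Cd83. Of the 9 T cell markers, Cd3e and Cd3g were at 0 in all 5 libraries and Cd3d was at most 0.412 FPKM, whereas Lck (105 to 122 FPKM) and Cd2 (53.4 to 71.1 FPKM) were expressed. The sum of the 9 was 162 to 194 FPKM in Csk(+/+) and 163 to 177 FPKM in Csk(f/f). The summed macrophage and neutrophil markers lay between 0.615 and 3.39 FPKM. The summed erythroid and platelet markers ranged from 239 to 1250 FPKM in Csk(+/+) and from 270 to 686 in Csk(f/f), and their part in the results was not tested. In bulk samples such as these, fewer cells of a type and less RNA per cell cannot be told apart.

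Promoters of these genes often held motifs of factors that are known to serve nuclear genes for mitochondrial proteins. RefSeq windows (GRCm38.p6, 250 bases before to 50 after the start) were matched by symbol for 67 of the 76 genes. A gene counted if any of its windows held a match. The NRF-1 motif, searched as GCGCNTGCGC on both strands, was present in 12 of the 67 genes (17.9%). Among all 27025 genes with windows of the same length it was present in 5.19%. It lay in 9 of 41 large subunit genes and 3 of 26 small subunit genes. The ETS family motif CCGGAAG, also on both strands, was present in 24 of 67 genes (35.8%), against 9.93% of all genes. The core of the YY1 motif, AAGATGG, was present in 13 of 67 (19.4%), against 7.28%. At least 1 of the 3 motifs occurred in 41 of the 67 genes (61.2%) and in 20.0% of all genes. The background was every RefSeq gene with a window, whether or not expressed in these cells, and was not matched for GC content. A match describes letters in the window and is not evidence of binding.

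The promoters shown were chosen after the values were seen: those of Mrpl12 and Mrps26, whose levels figure most below, of the highly expressed Mrps21, of Mrpl45 with its 3 NRF-1 matches, and of Mrps11, whose window overlaps that of a large subunit gene. Motif matches on either strand are in capitals, and all sequences read 5′ to 3′ on the strand of the gene. Mrpl12 (chr11:120484387-120484686, plus strand) and Mrpl45 (chr11:97315466-97315765, plus strand) held NRF-1 matches only. Mrps26 (chr2:130563507-130563806, plus strand) held 1 ETS match and 2 overlapping NRF-1 matches, and Mrps21 (chr3:95871465-95871764, minus strand) held 1 of each. Mrps11 (chr7:78782881-78783180, plus strand) held a YY1 match.
Mrpl12: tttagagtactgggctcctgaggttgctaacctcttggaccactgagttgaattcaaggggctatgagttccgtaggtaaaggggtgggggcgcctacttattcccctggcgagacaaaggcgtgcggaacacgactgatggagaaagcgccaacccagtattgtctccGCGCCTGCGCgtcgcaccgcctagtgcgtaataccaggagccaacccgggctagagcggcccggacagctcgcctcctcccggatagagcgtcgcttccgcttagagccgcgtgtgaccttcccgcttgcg
Mrpl45: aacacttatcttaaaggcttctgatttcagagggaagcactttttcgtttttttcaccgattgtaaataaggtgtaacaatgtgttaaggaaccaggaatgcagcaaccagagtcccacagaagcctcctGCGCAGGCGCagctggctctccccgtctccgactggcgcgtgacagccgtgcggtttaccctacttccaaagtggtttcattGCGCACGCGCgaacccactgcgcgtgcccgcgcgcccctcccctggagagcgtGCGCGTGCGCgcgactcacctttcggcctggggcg
Mrps26: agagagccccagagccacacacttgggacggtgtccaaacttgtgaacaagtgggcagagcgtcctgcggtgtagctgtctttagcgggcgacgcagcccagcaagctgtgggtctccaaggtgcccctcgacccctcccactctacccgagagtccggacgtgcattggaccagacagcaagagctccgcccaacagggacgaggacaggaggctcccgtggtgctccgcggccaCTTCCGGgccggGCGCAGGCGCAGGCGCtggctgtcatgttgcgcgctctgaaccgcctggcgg
Mrps21: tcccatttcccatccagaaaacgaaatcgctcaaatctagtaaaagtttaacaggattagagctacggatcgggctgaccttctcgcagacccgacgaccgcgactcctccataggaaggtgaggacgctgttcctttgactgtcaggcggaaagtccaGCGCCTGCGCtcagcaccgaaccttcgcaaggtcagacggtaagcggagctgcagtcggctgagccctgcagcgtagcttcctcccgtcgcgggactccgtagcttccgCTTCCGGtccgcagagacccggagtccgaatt
Mrps11: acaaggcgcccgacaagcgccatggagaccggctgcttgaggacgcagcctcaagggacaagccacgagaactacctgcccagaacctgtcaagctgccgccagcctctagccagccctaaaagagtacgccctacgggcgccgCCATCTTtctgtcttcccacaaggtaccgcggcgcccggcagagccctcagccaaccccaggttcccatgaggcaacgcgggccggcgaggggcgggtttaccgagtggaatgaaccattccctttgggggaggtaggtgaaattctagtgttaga

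The mitochondrial ribosomal protein genes were broadly expressed in these cells. The mean over the 5 libraries was at least 10 FPKM for 70 of the 76 and at least 100 FPKM for 9. The mean of 69 genes was above the median of all tested genes, and the median gene of the family stood at the 81st percentile. Together the 76 genes contributed 0.661%, 0.618% and 0.689% of all FPKM in Csk(+/+) and 0.669% and 0.654% in Csk(f/f). The order of the genes by level was nearly fixed, with Spearman's rho between libraries of 0.967 to 0.984 over the 76 genes (10 pairs, a description across genes).

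The highest level belonged to Mrpl52, a mitochondrion-specific large subunit protein, at 243, 231 and 316 FPKM in Csk(+/+) and 274 and 222 in Csk(f/f). Mrps21, the counterpart of bacterial S21, followed at 222, 217 and 321 against 249 and 210 FPKM. These neighbours in the order did not separate, since their ranges over the libraries overlapped, and in both genes the groups overlapped too. Next came Mrpl12, the stalk protein that contacts translation factors, with a mean of 200 FPKM. The next large subunit gene was Mrpl23, whose protein lines the rim of the exit tunnel, with a mean of 166 FPKM. Among small subunit genes the next were Mrps16, with a mean of 125 FPKM (92.5, 107 and 172 against 141 and 112), and Mrps7, a protein of the head, with a mean of 123 FPKM (111, 110 and 135 against 131 and 125). At the other end, 6 genes averaged under 10 FPKM: Mrpl1 at 6.91, Mrps25 at 8.19, Mrpl35 at 8.57, Mrpl50 at 8.59, Mrps31 at 9.08 and Mrpl17 at 9.89.

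**Figure D1:**
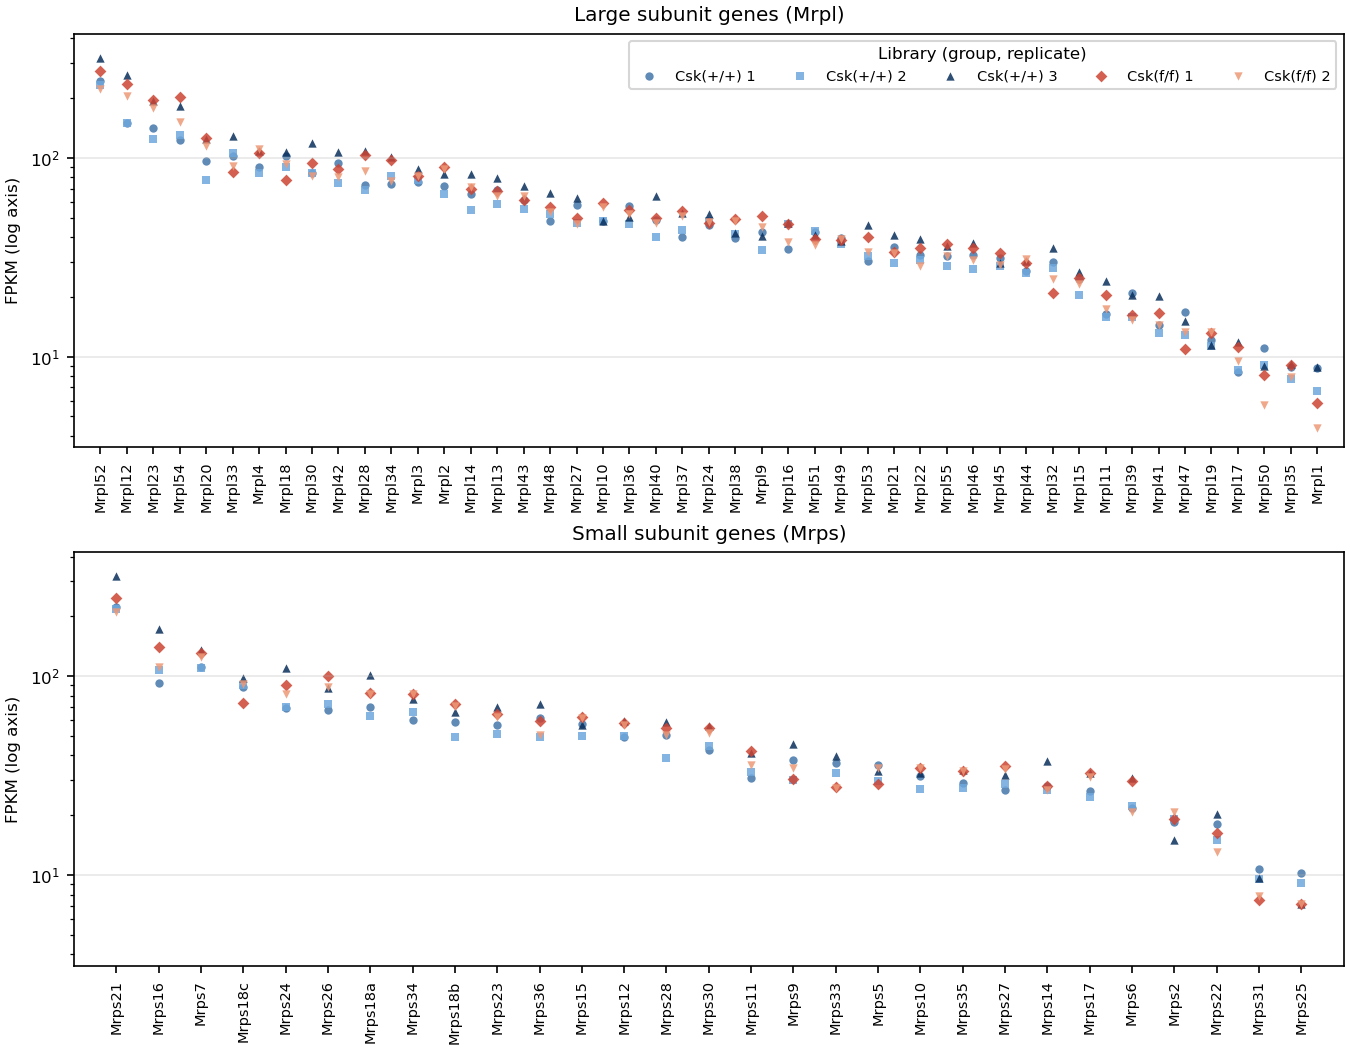
FPKM on a log axis for each of the 76 mitochondrial ribosomal protein genes, ordered by mean level within the large and the small subunit, with 1 point per library coloured by group. The 2 subunits span a like range, from under 10 FPKM to above 200, and the points of a gene lie close together compared with the range between genes.

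By geometric mean, transcripts of the genes named for the 2 subunits were in near balance in every library. Both sets leave out 6 measured subunit genes with other names: Dap3, Ptcd3, Aurkaip1, Chchd1, Gadd45gip1 and Ict1. The balance therefore describes the Mrpl and Mrps genes and not the complete subunits. The geometric mean of FPKM + 1 was 44.0, 40.8 and 51.3 for the large subunit genes in Csk(+/+) and 47.1 and 43.7 in Csk(f/f). For the small subunit genes it was 43.2, 40.8 and 51.0 against 46.9 and 45.0. The ratio of large to small was thus 1.02, 0.999 and 1.01 in Csk(+/+), and 1.0 and 0.971 in Csk(f/f). Mrps18a and Mrps30 carry small subunit names but sit in the large subunit of the assembled ribosome. With both moved (49 large and 27 small), the ratio was 1.05, 1.03 and 1.05 against 1.05 and 1.02. The 27 still included Mrps36, which has since been assigned to the 2-oxoglutarate dehydrogenase complex. The range of the ratio in Csk(f/f) reached below that in Csk(+/+) by name and by structure, through Csk(f/f) replicate 2. Medians differed more than geometric means: by structure they were 44.7 and 33.0 FPKM for large and small subunit genes in Csk(+/+) replicate 2, and by name 47.9 and 56.2 FPKM in Csk(+/+) replicate 3. The ratio is given as a description, since with 3 libraries against 2 the smallest 2-sided p of an exact permutation test is 0.2.

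Between the groups, no mitochondrial ribosomal protein gene passed the threshold. Of all 10242 genes tested with limma, 8 had an adjusted p under 0.05 (0.0781%), 4 higher (0.0391%) and 4 lower (0.0391%) in Csk(f/f), and 0 of the 76 were among them. At an unadjusted p under 0.05, 0 of the 76 were higher in Csk(f/f), against 8.07% of all tested genes, and 3 were lower (3.95%), against 13.6%. These 3 were Mrpl1, Mrpl32 and Mrps33. The median log2 difference, Csk(f/f) minus Csk(+/+) on the log2(FPKM + 1) scale, was 0.03 over the 76 genes and -0.01 over all tested genes. Values ran from -0.57 to 0.32, with quartiles of -0.11 and 0.17. The difference was positive for 46 of the 76, against 48.7% of all tested genes. The 95% confidence interval had a median half-width of 0.38, and for 75 of the 76 genes it lay within 1 log2 unit of 0.

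The large and small subunit genes gave medians of 0.02 and 0.11. With correction for GC content, described below, these became -0.02 and -0.00287, and without Csk(+/+) replicate 2 they were -0.05 and -0.00192. Positive values were found for 27 of 47 large subunit genes and 19 of 29 small subunit genes. The 48 genes with bacterial homologues had a median of 0.07 with 30 positive, and the 28 mitochondrion-specific genes a median of 0.01 with 16 positive. Mrps36 was counted among the 28. In 12 genes (15.8%) both Csk(f/f) libraries lay above all 3 Csk(+/+) libraries, against 20.7% of all tested genes, and in 7 genes (9.21%) below, against 24.5%. The 12 were 5 large subunit genes (Mrpl2, Mrpl9, Mrpl10, Mrpl19 and Mrpl38) and 7 small subunit genes (Mrps2, Mrps10, Mrps15, Mrps18b, Mrps26, Mrps27 and Mrps34). The 7 were Mrpl1, Mrpl32, Mrpl33, Mrpl50, Mrpl51, Mrps31 and Mrps33.

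**Figure D2:**
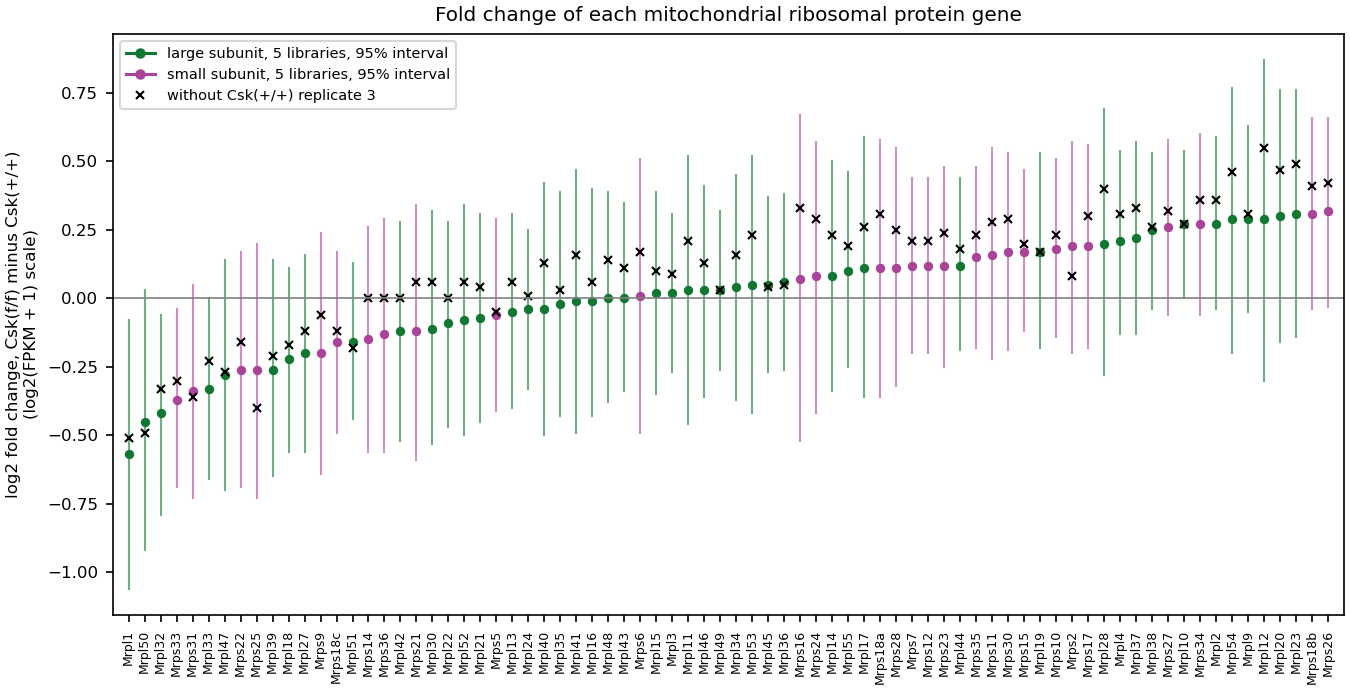
Log2 difference, Csk(f/f) minus Csk(+/+), for the 76 genes in 1 order by value, coloured by subunit, with bars for the 95% confidence interval. Crosses mark the difference without Csk(+/+) replicate 3. The values with bars run from -0.57 to 0.32, and 3 intervals exclude 0, all on the negative side.

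Among large subunit genes the lowest values belonged to Mrpl1, which forms the mobile stalk beside the exit site for transfer RNA. It was measured at 8.78, 6.69 and 8.83 FPKM in Csk(+/+) and at 5.87 and 4.40 in Csk(f/f). Both Csk(f/f) libraries were below all Csk(+/+) libraries, with means of 8.10 ± 1.22 (SD, n = 3) and 5.14 ± 1.04 (SD, n = 2), and the log2 difference was -0.57 ± 0.21 (SE; adjusted p = 0.2, limma). Mrpl32, a protein that is cut by an inner membrane protease before it is assembled, stood at 29.9, 27.9 and 35.1 against 21 and 24.5 FPKM. The groups again did not overlap, and the log2 difference was -0.42 ± 0.16 (adjusted p = 0.2, limma). Mrpl50, a mitochondrion-specific protein, was at 11.0, 9.11 and 9.02 against 8.11 and 5.74 FPKM (-0.45 ± 0.20, adjusted p = 0.251, limma). Mrpl33 was at 102, 105 and 128 against 85.2 and 90.8 FPKM (-0.33 ± 0.14, adjusted p = 0.231, limma). In Mrpl47, a protein near the tunnel exit, the groups overlapped at 16.7, 12.9 and 15.1 against 10.9 and 13.3 FPKM (-0.28 ± 0.18).

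The large subunit genes with the most positive values were Mrpl23, Mrpl20, Mrpl9, Mrpl54 and Mrpl12. Mrpl23 was at 141, 124 and 193 FPKM against 196 and 178, so that Csk(+/+) replicate 3 reached into the Csk(f/f) range (log2 difference 0.31 ± 0.19). The same library overlapped the Csk(f/f) range in Mrpl20 (96.4, 77.5 and 124 against 125 and 115 FPKM) and in Mrpl54 (123, 130 and 182 against 201 and 151 FPKM). Mrpl9 stood at 42.3, 34.5 and 40.3 against 51.1 and 44.7 FPKM, without overlap (0.29 ± 0.14, adjusted p = 0.277, limma). The stalk is built on Mrpl10 and Mrpl11, and Mrpl12 is its mobile part. Mrpl10 was the tightest of the 3, at 48.3, 47.9 and 47.9 FPKM in Csk(+/+) and 59.4 and 56.8 in Csk(f/f). Its groups did not overlap, and its log2 difference was 0.27 ± 0.12 (adjusted p = 0.235, limma). Mrpl11 overlapped, at 16.3, 15.9 and 24.1 against 20.4 and 17.4 FPKM (0.03 ± 0.21). Mrpl12 was at 149, 149 and 262 FPKM against 235 and 205, with the third Csk(+/+) library above both Csk(f/f) libraries (0.29 ± 0.25, adjusted p = 0.51, limma). Without that library Mrpl12 passed the threshold, with a log2 difference of 0.55 ± 0.11 (adjusted p = 0.0453, limma). It did not pass without either of the other Csk(+/+) libraries (0.15 in both cases), with correction for GC content (0.03), or with that correction and without replicate 3 (0.35, adjusted p = 0.181, limma).

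In the small subunit the lowest values belonged to Mrps33, Mrps31, Mrps25, Mrps22 and Mrps9. Mrps33 was at 36.5, 32.5 and 39.8 FPKM in Csk(+/+) and 27.9 and 27.6 in Csk(f/f). The groups did not overlap, with means of 36.3 ± 3.64 (SD, n = 3) and 27.8 ± 0.221 (SD, n = 2) and a log2 difference of -0.37 ± 0.14 (SE; adjusted p = 0.208, limma). Mrps31 was at 10.8, 9.52 and 9.71 against 7.55 and 7.82 FPKM (-0.34 ± 0.17). Both genes encode proteins without a bacterial counterpart. Mrps22, another of these, overlapped between groups at 18.2, 15.1 and 20.4 against 16.4 and 13.1 FPKM. So did Mrps25 (10.3, 9.17 and 7.13 against 7.14 and 7.17 FPKM) and Mrps9 (38.0, 30.1 and 45.7 against 30.4 and 34.6 FPKM).

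The most positive small subunit values were those of Mrps26, Mrps18b, Mrps34, Mrps27 and Mrps17. Mrps26, a mitochondrion-specific protein, was at 67.8, 72.4 and 87.7 FPKM against 99.9 and 88.8. The Csk(f/f) libraries lay above the Csk(+/+) libraries by a narrow margin, with means of 94.4 ± 7.82 (SD, n = 2) and 76.0 ± 10.4 (SD, n = 3) and a log2 difference of 0.32 ± 0.15 (SE; adjusted p = 0.261, limma). Mrps34, also mitochondrion-specific, was at 60.3, 66.0 and 76.9 against 81.2 and 81.6 FPKM (0.27 ± 0.14). Mrps27, a pentatricopeptide repeat protein, was at 26.8, 28.8 and 31.8 against 35.5 and 34.4 FPKM (0.26 ± 0.14). Neither of these genes overlapped between groups, and neither passed the adjusted threshold (adjusted p = 0.294 for Mrps34 and 0.297 for Mrps27, limma). Mrps17 overlapped, at 26.6, 24.6 and 32.6 against 32.5 and 31.1 FPKM.

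The 3 paralogues of bacterial S18 gave different values. Mrps18b was at 58.9, 49.6 and 66.1 FPKM in Csk(+/+) and 72.8 and 71.1 in Csk(f/f), without overlap (0.31 ± 0.15, adjusted p = 0.265, limma). Mrps18c overlapped and had a negative value, at 88.8, 90.0 and 97.6 against 73.5 and 92.0 FPKM (-0.16 ± 0.14). Mrps18a, the paralogue placed in the large subunit, overlapped at 69.9, 63.1 and 101 against 82.8 and 81.9 FPKM (0.11 ± 0.20). Mrps30, the other large subunit protein with a small subunit name, was at 42.6, 44.7 and 56.2 against 54.9 and 52.0 FPKM (0.17 ± 0.15).

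Several members with well-described positions or functions differed by less than 0.2 on the log2 scale when all 5 libraries were compared without correction for GC content. With the correction Mrps35 was at 0.45 and Mrpl3 at 0.26, and without Csk(+/+) replicate 3 Mrps12 was at 0.21 and Mrps35 at 0.23. Mrps12, the decoding centre protein, was at 49.6, 50.0 and 59.7 FPKM against 58.3 and 56.8. Mrpl3, which reaches towards the peptidyl transferase centre, was at 75.7, 77.2 and 87.3 against 81.1 and 81.3 FPKM, a log2 difference of 0.02 ± 0.12. Mrpl45, which holds the ribosome at the inner membrane, was at 31.4, 28.7 and 29.6 against 33.3 and 28.8 FPKM. Mrpl44, which has a ribonuclease III fold, was at 26.9, 26.4 and 30.3 against 29.7 and 31.1 FPKM, and Mrps35 was at 29.2, 27.6 and 33.8 against 33.3 and 33.5 FPKM. Mrps36, since assigned to the 2-oxoglutarate dehydrogenase complex, was at 61.4, 49.4 and 73.0 against 59.8 and 50.7 FPKM. The groups overlapped in each of these 6 genes. RefSeq lists pseudogenes named after Mrpl23 (1), Mrpl27 (1), Mrpl48 (1) and Mrps36 (3), and the values of these 4 genes are uncertain where the authors' counting could split reads between copies.

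One library of the Csk(+/+) group, replicate 3, set much of the spread. When libraries were weighted by their fit over all tested genes, replicate 3 received 0.259, against 1.35 to 1.55 for the others. The median SD within Csk(+/+) on the log2 scale was 0.2 over the 76 genes and 0.21 over all tested genes. Csk(+/+) replicate 3 was the highest of the 5 libraries in 46 of the 76 genes (60.5%), against 19.0% of all tested genes. This held for 28 of 47 large subunit genes and 18 of 29 small subunit genes. It lay above both other Csk(+/+) libraries in 61 of the 76 (80.3%), against 28.2%. Its ratio to the mean of replicates 1 and 2 had a median of 1.23 and ran from 0.731 for Mrps25 to 1.75 for Mrpl12, with 43 genes above 1.2. The summed FPKM of all genes differed as well, at 631669, 639454 and 764666 in Csk(+/+) and 716891 and 676607 in Csk(f/f). On the log2 scale, replicate 3 minus the mean of replicates 1 and 2 had a median of 0.29 over the 76 genes and -0.13 over all tested genes. Csk(+/+) replicate 2 was the lowest library in 37 of the 76 (48.7%), against 9.29%. The same library had the highest summed erythroid and platelet markers, 1250 FPKM, followed by Csk(f/f) replicate 1 at 686 FPKM. A link between these sums and the levels of the 76 genes was not tested. The median deviation from each gene's mean, on the log2 scale, was -0.06, -0.15 and 0.20 in the Csk(+/+) libraries and 0.08 and -0.03 in the Csk(f/f) libraries. For both subunits the Csk(+/+) libraries alone spanned more than the 2 groups differed, with deviations of -0.04, -0.14 and 0.20 for the large and -0.10, -0.15 and 0.15 for the small.

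**Figure D3:**
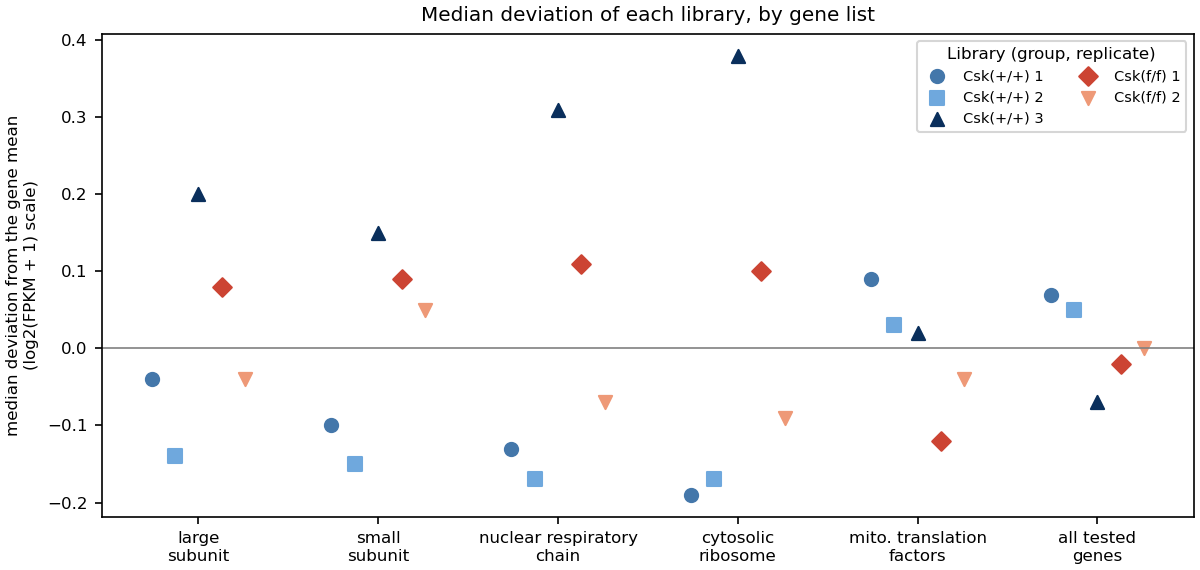
Median deviation of log2(FPKM + 1) from each gene's mean over the 5 libraries, for the large and small subunit genes, the comparison lists and all tested genes, with 1 point per library. In the lists of mitochondrial ribosomal, respiratory chain and cytosolic ribosomal protein genes, Csk(+/+) replicate 3 lies above the other 4 libraries.

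Without Csk(+/+) replicate 3, the comparison of the remaining 4 libraries called 411 of 10147 genes at an adjusted p under 0.05 (4.05%), 128 higher (1.26%) and 283 lower (2.79%). Mrpl12 was the 1 member among them, 1.47-fold above the mean of Csk(+/+) replicates 1 and 2. At an unadjusted p under 0.05, 18 of the 76 were higher (23.7%), against 13.3% of all genes, and 5 were lower (6.58%), against 21.4%. The median log2 difference became 0.15 over the 76 genes (0.11 for the large and 0.21 for the small subunit) and -0.06 over all genes. Positive values numbered 58 of 76, against 44.4% of all genes. Both Csk(f/f) libraries lay above both remaining Csk(+/+) libraries in 39 of the 76 (51.3%), against 28.0%, and below them in 8 (10.5%), against 38.4%. Other libraries moved the median of the family too: it was 0.12 without Csk(f/f) replicate 2, 0.000591 without Csk(f/f) replicate 1, -8.26e-05 without Csk(+/+) replicate 1 and -0.03 without Csk(+/+) replicate 2.

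The log2 difference followed the base composition of the transcripts. Over the 76 genes its Spearman correlation with transcript GC content was 0.54, and over 10118 tested genes with a known GC content it was 0.71, a description across genes that share the same 5 libraries. In the 26 members of lowest GC content (38.6 to 46.9%), the median was -0.11 with 8 positive. The 24 of middle GC content (47.1 to 52.2%) had a median of 0.04 with 16 positive. The 26 of highest GC content (52.5 to 60.4%) had a median of 0.12 with 22 positive.

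After each library's trend with GC content was removed, the median over the 76 genes was -0.01, and 8 of 10118 genes were called (0.0791%), 0 of them members. At an unadjusted p under 0.05, 7 members were higher (9.21%), against 4.89% of all genes, and 0 were lower, against 5.07%. Mrpl1 then had a log2 difference of -0.16, Mrpl32 of -0.04 and Mrps33 of -0.05, compared with -0.57, -0.42 and -0.37 before. Mrps30 had the lowest p of the family after this step, with a log2 difference of 0.62 (unadjusted p = 0.00703, adjusted p = 0.401, limma). The step removed the trend over all genes (rho 0) but turned it round within the family (rho -0.58). The corrected difference also followed transcript length in the family (rho 0.61, against -0.07 before the step and 0.08 over all genes after it). The corrected members of low GC content had a median of 0.24 and those of high GC content -0.10. With the correction and without Csk(+/+) replicate 3 together, 40 of 10030 genes were called (0.399%), 0 of them members. Of the 76, 24 were then higher at an unadjusted p under 0.05 (31.6%), against 10.6% of all genes, and 0 were lower, against 9.84%, with a median of 0.12 and 60 positive (49.9% of all genes).

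**Figure D4:**
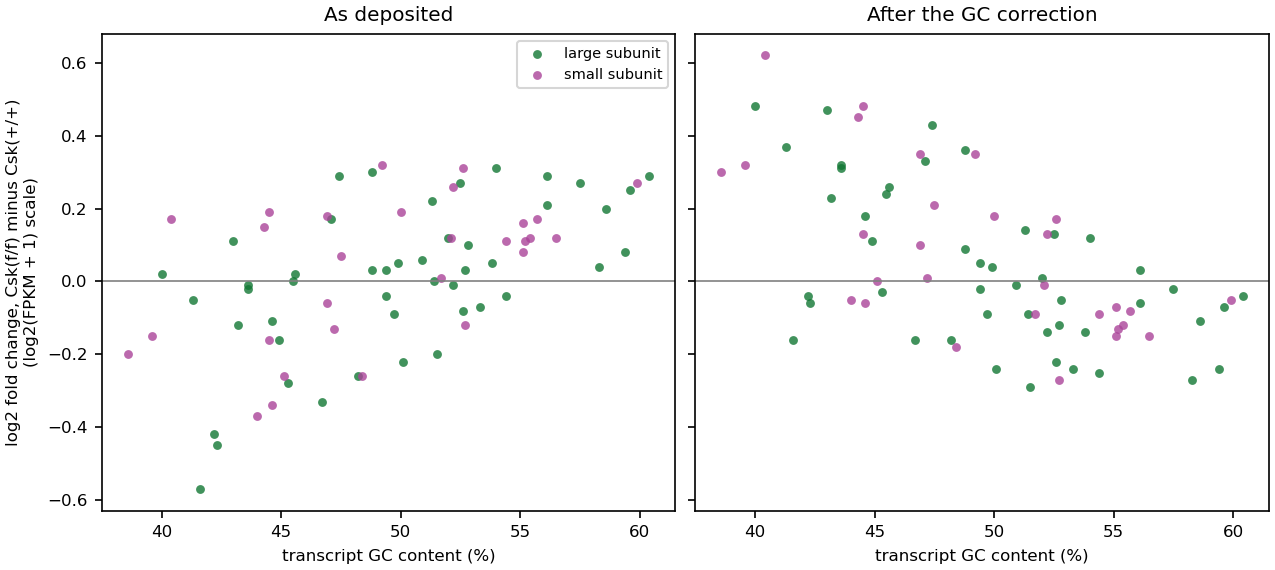
Log2 difference, Csk(f/f) minus Csk(+/+), against transcript GC content in percent for the 76 genes, before and after removal of each library's GC trend, with the subunits marked. Before the step the values rise with GC content (rho 0.54), and after it they fall (rho -0.58).

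The neighbouring genes of mitochondrial gene expression and respiration gave 0 calls at an adjusted p under 0.05 when all 5 libraries were compared with limma. Counts at an unadjusted p under 0.05 are to be read against 8.07% higher and 13.6% lower among all tested genes. Without Csk(+/+) replicate 3 these shares were 13.3% and 21.4%, and with correction for GC content they were 4.89% and 5.07%. Among 25 tested assembly factors of the mitochondrial ribosome the median log2 difference was 0.08, and an unadjusted p under 0.05 was found for 2 higher and 2 lower genes. One of these was Mpv17l2, an inner membrane protein needed for ribosome assembly, at 42.3, 42.6 and 57.7 FPKM in Csk(+/+) and 72.9 and 66.9 in Csk(f/f). Its groups did not overlap (log2 difference 0.56, adjusted p = 0.167, limma), and it passed the threshold without Csk(+/+) replicate 3 (adjusted p = 0.0315), but not when GC content was corrected as well, where the smallest adjusted p of the list was 0.0941. Another was Mterfd1, a termination factor family member that takes part in assembly, at 9.61, 6.94 and 7.33 against 4.2 and 1.72 FPKM (log2 difference -1.24, adjusted p = 0.154, limma).

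The 13 tested mitochondrial translation factors had a median of -0.09, and by unadjusted p 0 were higher and 2 lower. The 2 were Mtif2, the initiation factor (-0.58), and Guf1, a ribosome-bound GTPase (-0.60). Without Csk(+/+) replicate 3 the median of the 13 was -0.14, with 1 higher and 3 lower. With correction for GC content it was -0.07, with 0 higher and 1 lower. Tufm, the elongation factor Tu, was at 126, 128 and 147 against 160 and 154 FPKM. The 19 mitochondrial aminoacyl-tRNA synthetases had a median of 0.20, with 2 higher (Ears2 at 0.52 and Vars2 at 0.50) and 0 lower. That median was 0.08 without Csk(+/+) replicate 3, with 2 higher and 1 lower. With correction for GC content it was 0.12, with 2 higher and 0 lower. The 10 genes of mitochondrial transcription and RNA processing had a median of -0.38. One of them was higher, the RNA polymerase Polrmt at 0.50, and 4 were lower: Tfam, which packages mitochondrial DNA, at -0.47, Mtpap at -0.61, Pnpt1 at -0.65 and Rg9mtd1 at -1.0. Without Csk(+/+) replicate 3 the median of these 10 genes was -0.46, with 2 higher and 6 lower. With correction for GC content their median was -0.12, with 0 higher and 0 lower.

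The nuclear respiratory chain genes and the cytosolic ribosomal protein genes shared the pattern of libraries. The 79 respiratory chain genes had a median of -0.01, which became 0.15 without Csk(+/+) replicate 3, and that library was the highest in 62 of them. The 83 cytosolic ribosomal protein genes had a median of 0.02, which became 0.18 without it, and it was the highest in 78. Over the same libraries the median deviations were -0.13, -0.17 and 0.31 against 0.11 and -0.07 for respiratory chain genes, and -0.19, -0.17 and 0.38 against 0.10 and -0.09 for cytosolic ribosomal protein genes. None of the mitochondrially encoded genes searched for by name was among the genes measured, so their transcripts were not analysed here.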

How the data were processed

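RNA was extracted with TRIzol and made into libraries with a NEBNext Ultra RNA kit, per the labels' protocols. The submitters' processing notes name TopHat2 2.0.8, Cufflinks 2.1.1 and the mm9 build, and the authors deposited 1 table of FPKM per gene and library, with no counts. The 76 members and all comparison lists were chosen with earlier results of these data known.

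One repeated header line was left out. FPKM were taken as log2(FPKM + 1), genes needed at least 1 FPKM in at least 2 libraries, and the groups were compared with limma 3.58.1 (trended variance, R 4.3.3) over all 10242 genes, with Benjamini-Hochberg adjustment and a threshold of 0.05. The p-values measure the spread between these libraries, which the submitters call biological replicates. FPKM keep no exact depth, so no counting intervals are given. The model was tested on simulated data with independent noise, no outlying library and changes larger than those of the members. That test therefore does not cover differences of the size seen here. GC content came from the longest GENCODE transcript of each symbol, and each library's trend was fitted by lowess (span 0.3). Named genes are, per subunit, the 5 largest and 5 smallest log2 differences, the 3 highest levels and a panel by role. The lowest-level genes, those listed by overlap of groups and the promoters shown were named in addition, after their values were seen. Figures were drawn with matplotlib 3.10.9. Alternatives were other pseudocounts, filters and scalings, robust variance, library weights, a replicate block, GC correction and each library left out.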

Additional observations from a re-analysis of the deposited data

How the results depend on the processing

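Under the 16 alternatives, 17 of the 35 named genes kept the sign of their difference in each one, and 38 of 560 values changed sign. With 3 libraries against 2, small differences were not detectable, and FPKM give no sampling error of their own.

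The count of all genes called was 8. It became 5 with no filter, 671 with library weights and 40 with GC correction and without Csk(+/+) replicate 3, and leaving out each library in turn gave 5 to 411. Members called then ranged from 0 to 1 and their median from -0.03 to 0.15. Changed signs under quantile normalization were Mrpl3 at -0.01, and under library weights Mrpl52 at 0.03 and Mrps21 at 0.02. Under GC correction they were Mrpl54 at -0.04, Mrps34 at -0.05, Mrps7 at -0.12, Mrps12 at -0.15, Mrps18a at -0.13, Mrps9 at 0.3, Mrps18c at 0.13 and Mrps36 at 0.01. With that correction and without Csk(+/+) replicate 3 they were Mrpl32 at 0.08, Mrpl33 at 0.00485, Mrpl47 at 0.03, Mrps33 at 0.05, Mrps9 at 0.42, Mrps12 at -0.01, Mrps18c at 0.21 and Mrps36 at 0.21.

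Leaving out each library gave -0.23 to 0.07 for Mrpl52, -0.25 to 0.06 for Mrps21, -0.11 to 0.33 for Mrps16, -0.08 to 0.21 for Mrpl11, -0.03 to 0.31 for Mrps18a, -0.32 to 7.33e-05 for Mrps18c, -0.05 to 0.15 for Mrpl45, -0.02 to 0.09 for Mrpl3 and -0.28 to 0.000545 for Mrps36. Where 1 Csk(f/f) library remained, it is assumed to vary like the Csk(+/+) libraries. The cause of these changes was not tested.

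Whether the replicate numbers pair the samples could not be decided. The correlation of deviations from the group mean was -0.13 for number 1 and 0.11 for number 2. With 2 libraries in Csk(f/f), their deviations mirror each other, so these values are not separate checks. Number 3 exists in Csk(+/+) alone, so a replicate block leaves that library out of the comparison. With the replicate block, 492 genes were called (4.8%), 1 of them a member (Mrpl12 at 0.55, adjusted p = 0.0493, limma), the median over members was 0.15, and Mrpl52 was at 0.06, Mrps21 at 0.06 and Mrps36 at 0.000545.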

Other observations

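Of the 67 members with a RefSeq promoter window, 23 (34.3%) had a window that overlapped that of a gene on the opposite strand, against 11.9% of all 27025 genes. These formed 22 pairs. In 1 pair both genes were members: Mrps11 of the small subunit and Mrpl46 of the large subunit, whose windows shared 141 bases on chromosome 7. Mrps11 was measured at 30.7, 33.0 and 41.1 FPKM in Csk(+/+) and 42.2 and 36.0 in Csk(f/f), and Mrpl46 at 32.6, 27.5 and 37.3 against 35.1 and 30.7. Some of the other partners are themselves known for mitochondrial functions, whereas many, such as Hira, Klc4, Gga3 and Rab6a, are known for other functions. Sars2, the mitochondrial seryl-tRNA synthetase, shared 246 bases with Mrps12 and was at 19.7, 19.6 and 20.0 against 22.8 and 23.7 FPKM. Ndufb5, a complex I subunit, shared 193 bases with Mrpl47 and was at 91.5, 89.8 and 109 against 92.6 and 90.1 FPKM. Some partners differed widely in level. Fau, a cytosolic ribosomal protein gene, averaged 4560 FPKM and its partner Mrpl49 averaged 38.4. These pairs were picked after their values were seen.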
